A study of Homo sapiens with 34 samples.

Results

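The replication-dependent histone genes encode the histone proteins that cells make in bulk during S phase. They were taken as the RefSeq protein-coding genes of GRCh38 whose symbols match H1- followed by a digit, or H2AC, H2BC, H3C or H4C followed by a number. This rule gave 74 of the 19970 protein-coding genes on the autosomes and X, with 10 genes of the H1 family, 17 of H2A, 19 of H2B, 13 of H3 and 15 of H4. The name fits most but not all of them. H1-10 is known as a replication-independent linker histone, and H1-6, H1-7, H1-8, H2AC1 and H2BC1 as histones of testis or oocyte. These 6 genes match the rule by symbol and were kept.

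Chromatin was studied in DLD1 (DNTCF) cells, a line from a colorectal adenocarcinoma that carries a Tet-inducible dominant negative TCF7L2. TCF7L2 is the DNA-binding partner of β-catenin in Wnt signalling, and its dominant negative form silences that output. The uninduced cells received no agent, and the induced cells received 1 µg/mL doxycycline for 24 h. Both groups carry the transgene, and doxycycline-treated cells without it were not analysed here. ChIP-seq with antibodies to RNA polymerase II (Pol II) and to H3K27ac, an acetylation of histone H3 found at active promoters and enhancers, was done on 2 samples per antibody and condition, with 1 input per condition. Per the labels, both samples of an antibody and condition share 1 peak list. The data are therefore 4 lists without a measured spread, and differences between them carry no test. The 24 RNA-seq samples of the series were not analysed here. Libraries were sequenced to 40 to 55M reads of 75 bp, per the labels, and the lists held 57247 and 50665 Pol II regions (uninduced and induced) and 78005 and 79987 H3K27ac regions. Of 10 colorectal epithelial markers, all 10 had a Pol II and an H3K27ac region in both lists. Of 10 markers of other cell types, 4 had no region in any list, LYZ, ALB and COL1A2 among them, and the other 6 lay between places 3.18 and 33.9 of 100 in the Pol II lists. Their H3K27ac places ran up to 53.2 uninduced and 70.8 induced, the highest at ACTA2 induced. The Pol II places of the epithelial markers ran from 6.17 to 99.8 uninduced and from 1.72 to 99.8 induced.

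Most replication-dependent histone genes are short, have no introns and sit in clusters, the major one on chromosome 6 and a smaller one on chromosome 1. H2A, H2B, H3 and H4 form the core of the nucleosome, and H1 binds the linker DNA between nucleosomes. Their mRNAs end in a stem-loop in place of a poly(A) tail, and they are transcribed at the histone locus body, a nuclear structure built around NPAT. Each family has promoter elements of its own. H2B promoters carry an octamer bound by POU2F1, H4 promoters a site bound by HINFP, and H1 promoters an upstream A-rich box.

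The promoter sequences below, from RefSeq on GRCh38.p14, show these elements in genes with and without a Pol II region. Each run is the 150 bases before the transcription start, written 5′ to 3′ on the strand of the gene. Capitals mark a match, on either strand, to the TATA box (TATAAA), the CCAAT box (CCAAT), the octamer (ATTTGCAT), the H1 box (AAACACA), the core of the H4 site (GGTCC) or the TCF motif (CTTTGAT). The matches can share bases, as in H3C3, where a CCAAT box runs into the reverse of the H4 core, and in H2AC18, where one runs into the reverse of the TCF motif.

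The first 3 are H4 promoters. H4C14 (chr1:149832507-149832656, + strand) and H4C5 (chr6:26204460-26204609, + strand) had among the strongest Pol II summits of their clusters, and H4C6 (chr6:26240243-26240392, + strand) had no Pol II region in either list.
H4C14: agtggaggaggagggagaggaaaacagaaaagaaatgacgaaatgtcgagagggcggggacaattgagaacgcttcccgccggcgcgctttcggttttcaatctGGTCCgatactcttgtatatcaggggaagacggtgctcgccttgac
H4C5: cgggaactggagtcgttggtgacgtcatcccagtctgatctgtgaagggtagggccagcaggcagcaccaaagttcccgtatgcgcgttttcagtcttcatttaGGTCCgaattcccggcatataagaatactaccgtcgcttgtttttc
H4C6: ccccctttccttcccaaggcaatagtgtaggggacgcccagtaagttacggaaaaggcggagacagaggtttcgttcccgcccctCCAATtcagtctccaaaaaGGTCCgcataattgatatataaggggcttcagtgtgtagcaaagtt
In all 3 the H4 core begins at base -46, counted back from the start.

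The next promoters set a gene with Pol II beside one without it in the H1, H2B and H3 families. H1-4 (chr6:26156179-26156328, + strand), H2BC11 (chr6:27132796-27132945, - strand) and H3C10 (chr6:27809901-27810050, + strand) had Pol II in both lists. H1-1 (chr6:26017788-26017937, - strand), H2BC3 (chr6:26043714-26043863, - strand) and H3C3 (chr6:26045234-26045383, + strand) had it in neither.
H1-4: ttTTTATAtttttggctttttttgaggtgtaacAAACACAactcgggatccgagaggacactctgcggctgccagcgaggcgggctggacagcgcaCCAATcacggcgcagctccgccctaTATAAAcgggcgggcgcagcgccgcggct
H1-1: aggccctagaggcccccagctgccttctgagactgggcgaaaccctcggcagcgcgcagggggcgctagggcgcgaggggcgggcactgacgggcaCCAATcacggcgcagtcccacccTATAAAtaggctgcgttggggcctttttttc
H2BC11: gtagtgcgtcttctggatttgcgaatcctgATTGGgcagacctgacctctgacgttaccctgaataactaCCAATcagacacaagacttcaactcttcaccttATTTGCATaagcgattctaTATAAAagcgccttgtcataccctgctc
H2BC3: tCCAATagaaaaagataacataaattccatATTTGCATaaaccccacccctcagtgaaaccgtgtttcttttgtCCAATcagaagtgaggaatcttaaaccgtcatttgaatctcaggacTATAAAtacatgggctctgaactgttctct
H3C10: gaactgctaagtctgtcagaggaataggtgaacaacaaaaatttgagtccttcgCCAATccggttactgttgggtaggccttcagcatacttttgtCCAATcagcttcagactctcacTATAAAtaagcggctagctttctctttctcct
H3C3: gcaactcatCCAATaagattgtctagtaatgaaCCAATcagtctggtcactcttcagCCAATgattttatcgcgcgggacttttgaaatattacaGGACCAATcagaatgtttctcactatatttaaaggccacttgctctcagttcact
The octamer began at base -47 in H2BC11 and at base -120 in H2BC3. H1-4 held the H1 box at base -117, and the match of H1-1 lay farther out, at base -183 on the other strand.

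H2AC18 (chr1:149842751-149842900, - strand) is shown because it and its near-copy H2AC19 hold a TCF motif close to the start.
H2AC18: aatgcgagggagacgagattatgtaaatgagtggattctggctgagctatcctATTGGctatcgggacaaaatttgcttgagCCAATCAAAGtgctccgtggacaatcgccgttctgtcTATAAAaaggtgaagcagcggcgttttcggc
The motif lies on the other strand and begins at base -65.

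Pol II and H3K27ac regions covered the same histone genes in both conditions. In the uninduced list a Pol II region lay within the gene or 1 kb of it for 62 of 74 genes (83.8%, Wilson 95% interval 73.8 to 90.5). The interval covers counting error only and takes genes as separate, though many neighbours share a region. Over all protein-coding genes the share was 73.1%. The induced list also held 62 of 74, beside 71.5%. An H3K27ac region lay over 63 of 74 genes in each list (85.1%, 75.3 to 91.5), beside 75.7% of all genes uninduced and 75.3% induced. Genes this short are seldom listed: among the 462 other protein-coding genes of 1 kb or shorter, 16.2% and 16% had a Pol II region and 18.2% had an H3K27ac region in each list. Among the 62 histone genes of that size, 52 had Pol II and 53 had H3K27ac in each list.

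No histone gene had a region in 1 condition alone. Over all genes, 2.04% had Pol II in the uninduced list alone and 0.431% in the induced list alone, and for H3K27ac the shares were 1.05% and 0.706%. With 74 genes, shares of this size come to few genes or none. In each condition 62 genes had both marks, 1 had H3K27ac without Pol II and 11 had neither. The gene with H3K27ac alone was H4C7 (chr6:26246611-26246996), whose window was touched at its edge by a region over the neighbouring H3C7 and H2BC9 in the uninduced list and by a region of 510 bp in the induced list.

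The 12 genes without Pol II were H1-1, H1-6, H1-7, H1-8, H2AC1, H2BC1, H2BC3, H2BC10, H3C3, H3C8, H4C6 and H4C7. They include 5 of the 6 genes named above as replication-independent or germline histones. The other 7 are H1, H2B, H3 and H4 genes and all lie in the first chromosome 6 cluster, which holds 10 of the 12. H2BC3 and H3C3 are neighbours, as are H4C6 and H4C7, and H3C8 and H2BC10. Their distance to the nearest Pol II region of the uninduced list ran from 1903 bp at H4C7 to 235696 bp at H2AC1, with a median of 7721 bp. In the induced list the median was 8394 bp. H1-1 lay 2664 bp from H3C1, a gene with Pol II in both lists.

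Pol II over histone genes was mostly among the strongest of its list, whereas H3K27ac stood near the middle. Each gene was given a place, the percentile of its strongest summit by −log10 q among all genes with a summit in the same list. These places rank within a list, and lists of different lengths show no change between conditions. The median Pol II place of the 62 genes was 94.7 uninduced and 95.8 induced, against 50 over all genes by construction. A place of 95 or above was reached by 30 genes uninduced and by 35 induced, where 5% of all genes reach it in each list. Ranked by fold enrichment in place of −log10 q, 15 genes reached it uninduced and 24 induced. By −log10 q, 29 genes did so in both lists. H3K27ac places had a median of 58.7 over 63 genes and 58.2 over 62, and 2 and 1 genes reached 95, where 5% and 5.05% of all genes do.

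**Figure D1:**
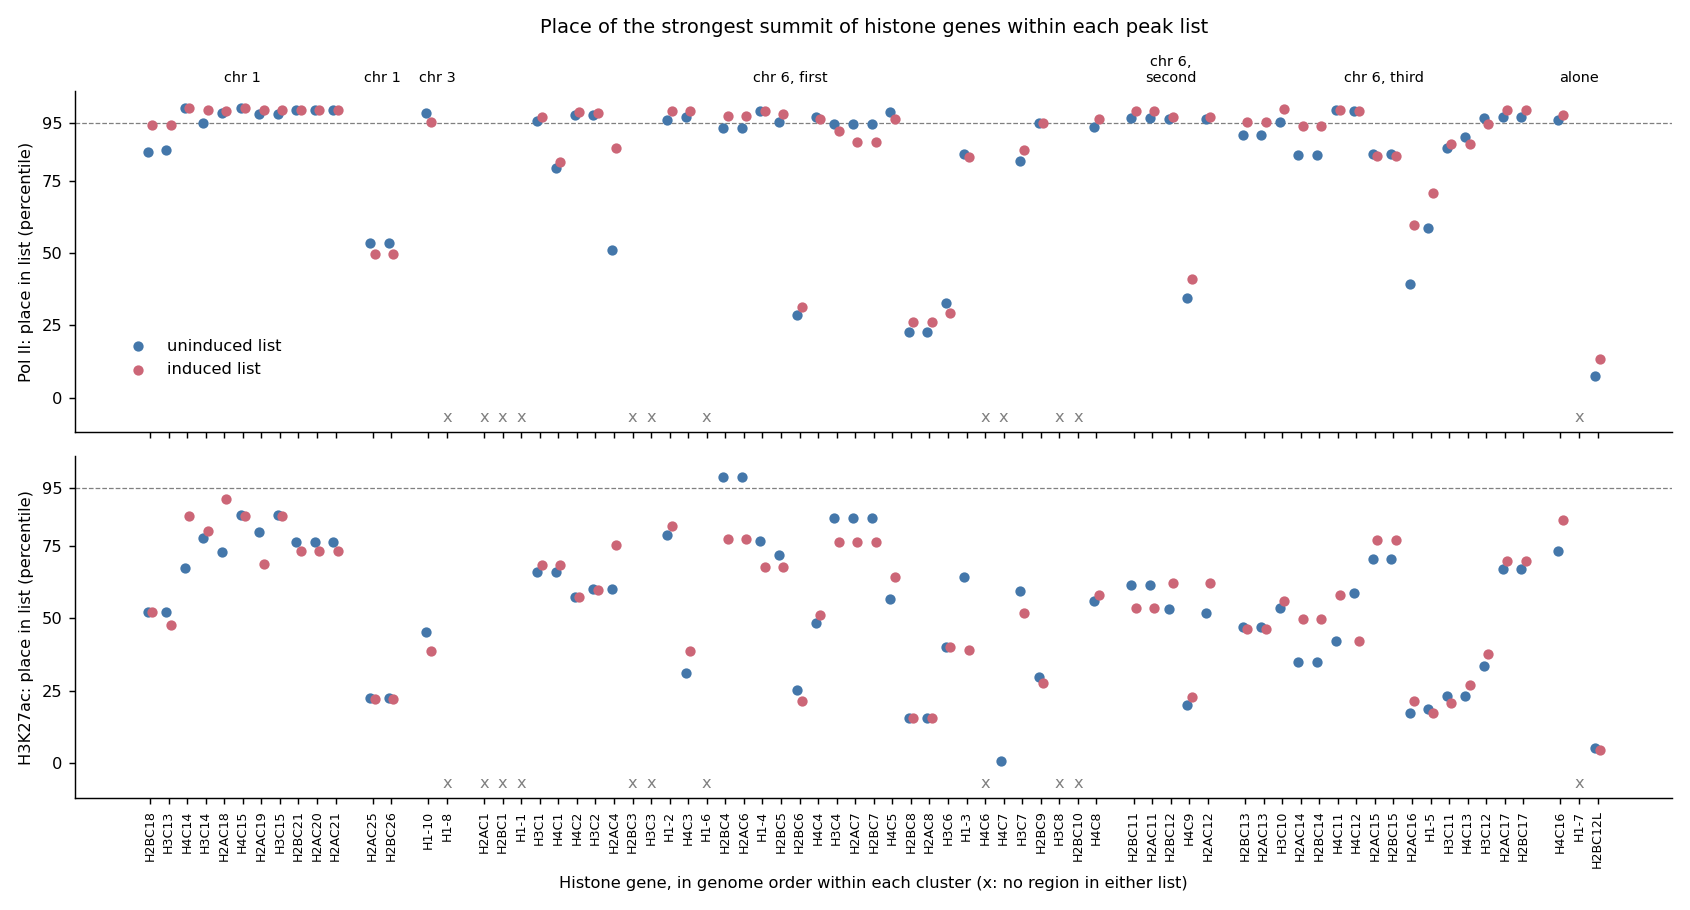
Place of the strongest Pol II summit (top) and H3K27ac summit (bottom) of the histone genes reported here within its list, as a percentile of all genes with a summit there (y axis), with genes in genome order by cluster (x axis). Blue points are the uninduced list, red points the induced list, x marks genes with no region in either list, and the dashed line is place 95. Pol II places crowd above 75 in the main clusters. Places of 50 or below in both lists are those of H2BC6, H2BC8, H2AC8, H3C6, H4C9 and, outside the clusters, H2BC12L. In the main clusters H2AC16 and H1-5 also lie below 75 in both lists, and H2AC4 uninduced. H3K27ac places spread over the whole range.

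The Pol II place was above the H3K27ac place in 57 of 62 genes uninduced and in 60 of 62 induced, where over all genes with both it was above in 49.1% and 47.0%. The median gap was 27.6 places uninduced and 29.8 induced. Across the histone genes the places of both marks went together with Spearman's rho 0.497 and 0.560 (Pearson's r 0.646 and 0.662), a description over 62 genes that share regions, chromatin and input. The same rho over all genes was 0.559 and 0.575. By fold enrichment in place of −log10 q, the median Pol II place was 88.9 uninduced and 92.8 induced, and that of H3K27ac 57.1 and 56.0.

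**Figure D2:**
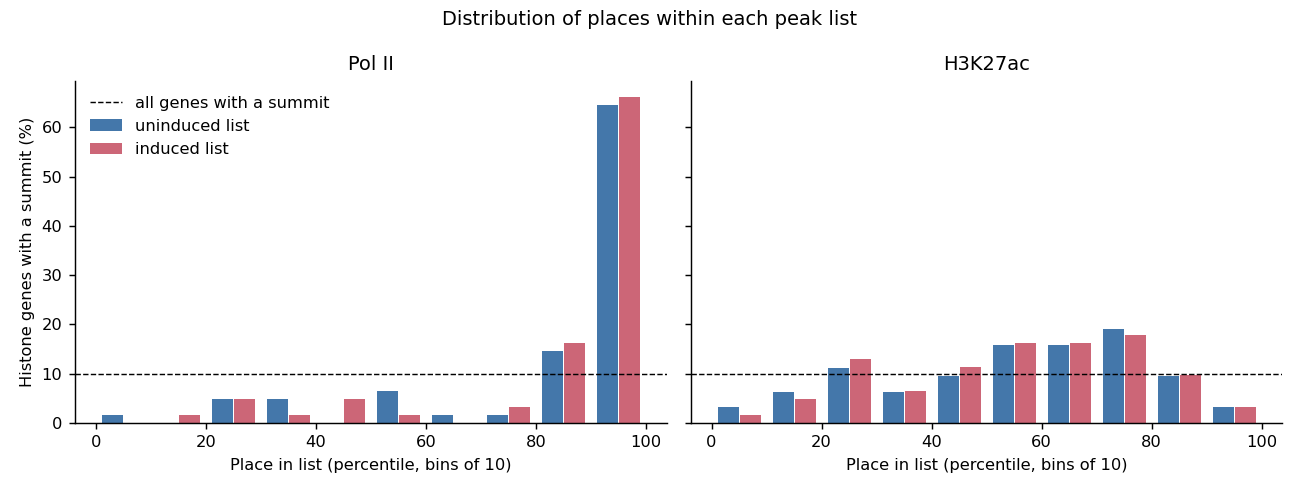
Percent of histone genes with a summit (y axis) in bins of 10 places within a list (x axis, percentile), for Pol II (left) and H3K27ac (right), with blue bars for the uninduced and red bars for the induced list. The dashed line at 10 is the level of all genes with a summit. The bin from 90 to 100 holds 64.5% and 66.1% of the genes for Pol II and 3.17% for H3K27ac in the uninduced list.

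Neighbouring histone genes often share a summit, so they do not count as separate measurements. With each summit counted once, 49 Pol II summits of the uninduced list had a median place of 95.01 and 48 of the induced list 96.2. Of the 43 separate Pol II regions over histone genes in the uninduced list, 2 were among the 100 strongest of the list, 15 among the 500 strongest and 24 among the 1000 strongest. The induced list also had 43 regions, with 3, 18 and 23 at the same limits. Of the H3K27ac regions over histone genes, 43 uninduced and 49 induced, 1 in each list was among the 1000 strongest.

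The chromosome 1 cluster (chr1:149782689-149887965, 11 genes) held the strongest Pol II summits, those of H4C14 and H4C15, whose promoters are near-copies of each other. All 11 genes had both marks in both lists, and 9 of 11 had a Pol II place of 95 or above in each. H4C15 (chr1:149844488-149861240) and H4C14 (chr1:149832657-149833052) encode histone H4. H4C15 had a Pol II −log10 q of 538 uninduced and 480 induced, at places 99.96 and 99.94. H4C14 had 535 and 475. The H3K27ac −log10 q of H4C14 was 207 uninduced and 237 induced, at places 67.6 and 85.2. Over the gene alone, without 1 kb around it, the uninduced place was 30.3. H2BC21 (chr1:149884459-149886682), an H2B gene at the far end of the cluster, shared a Pol II summit of 450 uninduced and 399 induced with H2AC20 and H2AC21. Over the gene alone the Pol II place of H2BC21 was 57.1 uninduced and 76.0 induced, against 99.3 and 99.5 with 1 kb around it.

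The chromosome 1 genes are also the ones whose reads are hardest to place. The 300-base promoters of H4C14 and H4C15 are identical at all 300 positions. H2AC18 and H2AC19 share 225 of 226 possible runs of 75 bases, the length of a read, and H3C14 and H3C15 share 222. H4C11 and H4C12 on chromosome 6 share 52, and the pairs H2AC13/H2BC13 and H2AC14/H2BC14 share 19. The sources used here do not give how reads with more than 1 match were placed, and the split of signal within these pairs is uncertain. Without these 12 near-copies, 50 of 62 genes had Pol II in each list, at a median place of 94.4 uninduced and 94.9 induced. The strongest of these 50 was H2BC21 on chromosome 1 uninduced, sharing its summit with H2AC20 and H2AC21, and H3C10 on chromosome 6 induced, at place 99.6.

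The first chromosome 6 cluster (chr6:25726063-26285534) holds 34 genes, and was the most mixed. Pol II was listed for 24 of them in each list, with places from 22.9 to 99.2 uninduced and from 26.2 to 99.1 induced. H1-4 (chr6:26156329-26157115), a linker histone gene, had the highest Pol II −log10 q of the cluster uninduced, 444, and 370 induced. H4C5 (chr6:26204610-26205021) had 429 and 305, and H4C2 (chr6:26026896-26027283) had 400 and 362. At the other end, H2BC8 and H2AC8 shared a summit of 92.9 uninduced and 80.5 induced, at places 22.9 and 26.2. H2AC4 had −log10 q of 202 at place 51.1 uninduced and 242 at place 86.2 induced.

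H2BC4 and H2AC6, a divergent pair in the same cluster, had the strongest H3K27ac summit of any histone gene uninduced, with a −log10 q of 323 at place 98.8. In the induced list the pair had 217 at place 77.5. Their Pol II summit had 349 at place 93.3 and 320 at place 97.3.

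Both other chromosome 6 clusters had regions of both marks over every gene in both lists. The second (chr6:27132316-27147562) holds 5 genes. H2BC11 (chr6:27132316-27132795) and its partner H2AC11 had a Pol II −log10 q of 382 uninduced and 373 induced, at places 96.6 and 99.1. H2BC12, which encodes histone H2B, shared a Pol II summit of 377 and 313 with H2AC12, at places 96.2 and 96.9. This summit lay inside H2AC12 in both lists. H4C9 was the weak gene there, with 148 and 125 at places 34.5 and 40.9. The third (chr6:27807479-27893891) holds 16 genes. Its strongest uninduced were the near-copies H4C11 (454 and 382) and H4C12 (442 and 379), followed by H2AC17 (392 and 389). In the induced list H3C10 was its strongest, with 366 uninduced and 408 induced at places 95.2 and 99.6. H2AC17 then lay above H4C11 and H4C12. H1-5 stood at places 58.5 and 70.9.

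The other genes lie apart. H2AC25 and H2BC26, a divergent pair at chr1:228457364-228458558, shared a Pol II summit with −log10 q of 209 and 146, at places 53.5 and 49.6. H1-10 (chr3:129314771-129316286) had 422 uninduced and 295 induced, at places 98.5 and 95.4, and H1-8 nearby had no region. H4C16 (chr12:14770720-14771131) had 376 and 331, at places 96.1 and 97.8. H2BC12L (chr21:43565182-43565648), an H2B-like gene, was the weakest with Pol II, at 13.1 and 27.3. H1-7 on chromosome 12 had no region of either mark.

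By family, H4 genes had the highest median Pol II place. The 13 H4 genes with Pol II had a median place of 97.1 uninduced and 97.8 induced, with 9 and 10 at 95 or above. The 11 H3 genes had 95.01 and 94.7, the 16 H2A genes 93.9 and 96.2, the 16 H2B genes 92.1 and 94.6 and the 6 H1 genes 90.2 and 89.4. The ranges overlap widely, from 34.5 to 99.96 for H4 and from 58.5 to 99.2 for H1 uninduced. For H3K27ac the medians lay between 52.7 for H2B and 70.6 for H1 uninduced, and between 52.9 for H2B and 69.4 for H2A induced. H1 had the highest family median uninduced, and H2A induced. Many H2B genes share their strongest summit of either mark with the H2A gene beside them. The H2A and H2B medians are therefore not separate measurements.

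The share of each gene and 1 kb around it that Pol II regions covered was near complete in both lists. The median over the 74 genes was 97.2% uninduced and 93.5% induced, where over all genes it was 3.50% and 2.85%. For H3K27ac it was 100% in both lists, where over all genes it was 6.68% and 6.48%. This share depends on gene length, and most histone genes are short. Of other genes of 1 kb or shorter with a Pol II region, 17 of 75 uninduced and 16 of 74 induced were covered in full. Of the histone genes of that size with Pol II, 27 of 52 were in each list. For H3K27ac the counts were 15 and 13 of 84, beside 41 and 38 of 53 histone genes. Of the 62 genes with Pol II, 25 were covered in full in both lists, 24 were covered less in the induced list and 13 more. Over all genes with Pol II, 80.8% were covered less and 17.9% more, and the whole induced list covers 56.7 Mb against 70.9 Mb uninduced. Full coverage leaves no room for a difference in a short gene. For H3K27ac, 39 genes were covered in full in both lists, 11 were covered less (55.9% of all genes) and 13 more (42.9%).

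H3C6 (chr6:26224178-26227473), which encodes histone H3, was the 1 gene past 25 percentage points for Pol II. It was covered to 93.3% uninduced and 52.4% induced. Over all genes with Pol II, 0.538% were covered less by that much and 0.0204% more, and no histone gene was covered more by that much. In the uninduced list a region of 4803 bp lay over H3C6 and one of 685 bp lay within 1 kb of it. In the induced list 2 regions of 2005 and 1291 bp lay there. Its strongest Pol II summit had a −log10 q of 141 and 92.3, at places 32.8 and 29.3, and its H3K27ac coverage was 44.8% and 43.8%. The gene model of H3C6 is 3296 bp long, whereas 62 of the 74 are 1 kb or shorter.

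The next largest differences were smaller. H2BC8 was covered by Pol II to 100% uninduced and 82.8% induced. H1-10 was covered to 96.2% and 79.9%. H2BC6 was covered to 99.4% and 87.4%, H2BC21 to 78.4% and 68.1%, and H2BC5 to 40.9% and 32.7%. The largest the other way was H3C13, from 75.5% to 78.7%. H1-3, H4C5, H4C1, H4C16 and H1-5 followed, with 1.93 to 2.99 percentage points more. For H3K27ac no histone gene passed 25 points either way, where 0.0262% of all genes were covered less and 0.0656% more. The largest difference was at H4C7, with 17.2% uninduced and 4.36% induced.

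**Figure D3:**
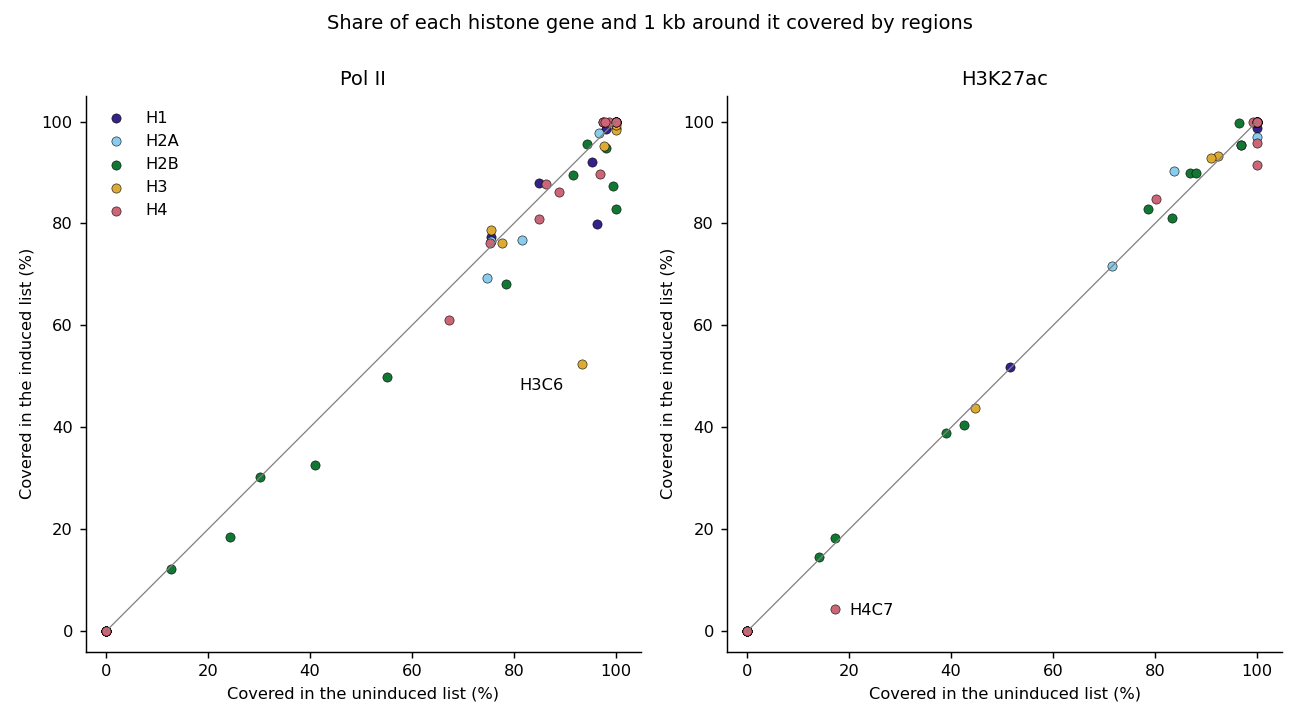
Percent of each histone gene and 1 kb around it covered by regions in the uninduced list (x axis) and the induced list (y axis), for Pol II (left) and H3K27ac (right), with 1 point per gene coloured by family. The line marks equal coverage. The point farthest from it is H3C6 for Pol II (93.3% and 52.4%), followed by H2BC8 (100% and 82.8%) and H1-10 (96.2% and 79.9%), and H4C7 for H3K27ac (17.2% and 4.36%).

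Regions over histone genes were long, and their borders differed between the lists. Their median length was 3382 bp uninduced and 3000 bp induced for Pol II, where all regions have 733 and 678 bp. For H3K27ac it was 3775 and 3534 bp, where all regions have 1159 and 1040 bp. All regions include weak ones and ones away from genes, and regions over other genes were not measured apart. The longest Pol II region lay on chromosome 1 in the induced list, where 29131 bp ran over H3C14, H2AC18, H4C15, H2AC19 and H3C15. The uninduced list had regions of 17106, 11993 and 5411 bp over the same stretch, the first of which also took in H4C14. The longest H3K27ac region, 25774 bp in the uninduced list, ran over H2BC6, H4C4, H3C4, H2AC7, H2BC7 and H4C5. In the induced list 3 regions of 3769, 14807 and 5933 bp lay there, and each of the 6 genes was still covered in full.

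Many H2A and H2B genes start back to back. The promoter table gave 11 such pairs, with starts 194 to 248 bp apart (median 236 bp). It gave 2 further pairs of an H3 and an H2B gene, H3C7 with H2BC9 at 979 bp and H3C4 with H2BC7, where an H3C4 entry begins at the start of H2AC7. A single Pol II region ran over both starts in 12 of the 13 pairs in each list, and a single H3K27ac region in 10 of 13. The pairs H3C4/H2BC7 and H2AC7/H2BC7 have the same starts, so these counts hold that place under both names. Divergent pairs of other genes were not counted. H2AC1 and H2BC1 had neither mark. The H3K27ac regions of H2AC25/H2BC26 and of H2BC11/H2AC11 were split in 2 near the starts in both lists.

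Most Pol II summits lay just inside the gene and most H3K27ac summits away from the start. This was measured in genes with 1 promoter entry, from the strongest summit within 1 kb of the start. The median Pol II summit of 51 histone genes lay 73 bp into the gene in both lists, where over all genes it was 29 and 33 bp. In 29 genes outside divergent pairs it lay 88 and 90 bp into the gene, and none of the 29 was upstream. H4 summits had a median of 119 and 112 bp, and all 11 lay within 200 bp of the start. Of 13 H2B summits, 9 lay upstream of the start uninduced and 10 induced, and the median of the 13 was -253 and -270 bp. Those of H2BC18, H2BC6 and H2BC9 lay inside the gene in both lists. H3C7 and H2BC9, a divergent pair, each had a summit of their own. In the H2A and H2B divergent pairs with Pol II the summit belongs to both genes. H2BC11 had it at -300 and -290 bp, and it lay 52 and 42 bp into H2AC11.

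H3K27ac summits lay within 200 bp of the start in 1 of 52 histone genes uninduced and 0 of 51 induced, where over all genes 12.9% did in each list. They lay on both sides, with 18 upstream of the start in each list, and their median was 331 and 317 bp into the gene. H4C14 had its H3K27ac summit at -548 and -543 bp, and its Pol II summit at 88 and 104 bp. H1-4 had them at 593 and 562 bp and at 81 and 67 bp. Downstream of the gene, the median histone gene with Pol II had 100% of the next 1 kb covered in both lists, where the median of all genes with Pol II was 0%. In a gene of 1 kb or shorter this window begins close to the promoter.

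**Figure D4:**
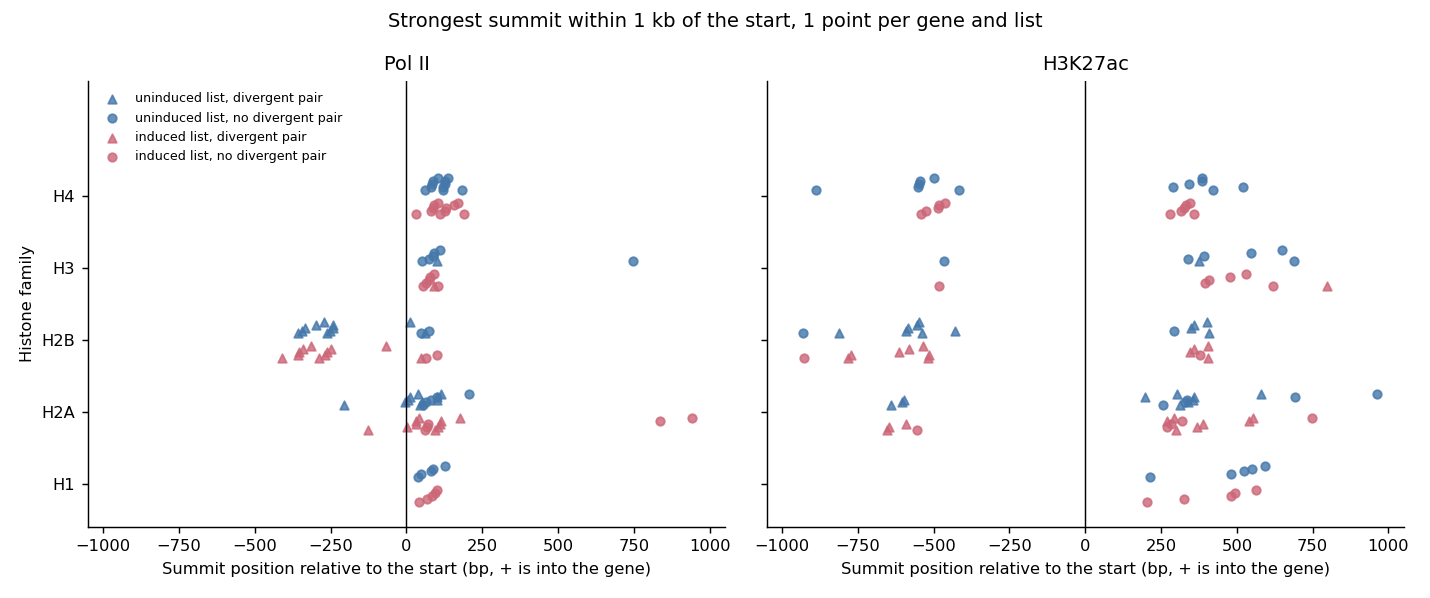
Position of the strongest summit within 1 kb of the start (x axis, bp, positive into the gene) by histone family (y axis), for Pol II (left) and H3K27ac (right). Blue is the uninduced and red the induced list, triangles are genes of divergent pairs and circles the others. Pol II summits of H1 and H4 genes lie within 200 bp of the start, as do those of H3 genes apart from H3C14 at 747 bp uninduced. H2B summits range from -358 to 73 bp uninduced, with 9 of 13 upstream, and 1 of 52 H3K27ac summits lies within 200 bp of the start uninduced.

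The octamer, the H4 core and the H1 box were most frequent in certain histone families, whereas CCAAT and TATAAA were found in every family. Of 74 genes, 67 had an entry in the promoter table, whose windows run from 250 bases before to 50 after the start. Motifs were searched on both strands, and the share of all 35116 promoters of the table stands beside each. Histone genes were counted by gene. By gene, the shares over all 15812 genes with an entry were 2.22% for the octamer, 57.7% for GGTCC and 5.84% for the H1 box. They were 42.1% for CCAAT and 12.4% for TATAAA. The octamer ATTTGCAT was found in 14 of 18 H2B and 11 of 16 H2A genes, 1 of 11 H3 and none of the H1 and H4 genes, against 1.77% of all promoters. Of the H2A matches, 10 lay on the other strand and 1 on the strand of the gene. In a divergent pair the same site can be counted in both genes. The match at base -47 of H2BC11 and that at base -208 of H2AC11 are the same bases. The H4 core GGTCC was found in 12 of 13 H4 genes (46.3% of all promoters). In all 12 a match on the strand of the gene lay between bases -47 and -44. GGTCC was also found in 4 of 9 H1, 4 of 18 H2B, 3 of 11 H3 and 1 of 16 H2A genes. The H1 box AAACACA was found in 7 of 9 H1 genes (5.64%), the exceptions being H1-8 and H1-10. The same letters were found in 2 of 11 H3 and 1 of 16 H2A genes. CCAAT was found in all H2A, H2B and H3 genes, 8 of 9 H1 and 3 of 13 H4 genes (34.6%). TATAAA was found in 44 of 67 (11.5%).

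Each of these elements was also found in genes without Pol II. TATAAA was found in 5 of the 12 genes without Pol II and in 39 of 55 with it, CCAAT in 11 and 45, and the octamer in 4 and 22. H4C7 was the 1 H4 gene without GGTCC. A match shows only that the letters are present, and no match only that they are not in this window. The TCF motif CTTTGAT, the site read by TCF7L2, was found in 3 of 67 genes (2.62% of all promoters): H2AC18, H2AC19 and H3C6. H2AC18 had Pol II −log10 q of 423 uninduced and 374 induced, and H2AC19 had 407 and 382, both covered in full in both lists. The match of H3C6 lay at base -214.

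The genes that lie among the histone genes stood at lower Pol II places than the median histone gene. Of 12 other protein-coding genes within the clusters, 7 had Pol II and 7 had H3K27ac in each list. SLC17A1, SLC17A2, SLC17A3 and SLC17A4, members of the sodium-phosphate transporter family, had neither mark. TRIM38 was at Pol II places 51.0 and 49.3 and HFE, the iron regulator, at 22.9 and 21.1. The highest, MBD4 and IFT122, were at 78.7 and 88.3. Of 10 histone pseudogenes farther than 1 kb from a histone gene, 2 had Pol II uninduced and 3 induced.

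Factors of histone transcription and processing had regions throughout, at places nearer the middle. Of 20 genes of the histone locus body and 3′ processing, all 20 had both marks in both lists, with a median Pol II place of 56.3 uninduced and 59.8 induced. NPAT, the hub of the histone locus body, was at 78.5 and 82.7. POU2F1, which binds the octamer, was at 83.7 and 86.7. Pol II covered 17 of the 20 less in the induced list and 3 more, none by over 25 points. The shares over all genes with Pol II were 80.8% less and 17.9% more. Of 20 S phase genes, all 20 had both marks, at median Pol II places of 39.7 and 48.0. PCNA, the replication clamp, was at 95.7 and 94.98. Pol II covered 15 of them less and 5 more, beside the same shares over all genes. Of 19 replication-independent histone genes, 14 had Pol II in each list, at median places of 72.7 and 63.9, led by H2AX (99.1 and 98.8), H3-3B (98.9 and 98.9) and H2AZ1 (97.3 and 96.96). The share of cells in S phase was not measured, and its part in these values was not tested.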

How the data were processed

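The authors' 4 deposited peak lists were used, 1 per antibody and condition, each serving 2 samples. Each gives a fold enrichment (a ratio over local background) and a −log10 q per summit, deposited from 1.30 upward. MACS2 2.1.1.20160309, BWA 0.7.17-r1188, deepTools 3.5.0 and SAMtools 1.10 are among the tools in the submitters' processing notes. The sources used here do not give peak-calling settings, how reads with several matches were placed, or whether replicates were pooled. Positions are on GRCh38. The lists hold no values of single samples.

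Summits on the autosomes and X were kept, and rows of a region were joined. Coverage is the percent of a gene and 1 kb around it under regions, called different past 25 percentage points. Histone genes within 500 kb of each other form a cluster. The deposited −log10 q and ratio served to rank within a list. Coverage and clustering were tested on simulated regions. Python 3.11.15, pandas 2.3.3 and scipy 1.17.1 were used.

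Genes described in full were the 3 strongest by Pol II per cluster, those outside clusters (1 of them is not reported here), and the 6 largest coverage differences each way. Others were named after their values were seen. The members and lists were chosen with earlier results of these data known. RNA-seq samples and summit files, which repeat the lists, were not used. No protein sequence was used. Alternatives were list threshold, window, overlap rule, list length and members left out.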

Additional observations from a re-analysis of the deposited data

How the results depend on the processing

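No replicate could be left out, since each list serves 2 samples. No paired analysis was possible because the lists carry no replicate numbers and the results come from no test. Over 16 results and 10 alternatives, 118 of 144 values were counted as unchanged and 26 as moved. The 118 include gene counts that differed from the reported ones. Keeping regions with −log10 q of at least 5 left 1 gene with H3K27ac in the uninduced list alone (H4C7), as did at least 20 (1) and asking for a summit (1). At least 20 also left 1 gene with Pol II in the induced list alone (H2BC12L), and a median Pol II coverage of 93.2% induced. Asking for 50% of the gene itself left 59 genes with Pol II uninduced and 58 induced, and 58 with H3K27ac in each list. It also left 1 gene with Pol II in the uninduced list alone. Over the gene alone, median Pol II coverage was 100% in both lists and 2 genes were covered less by over 25 points. With 2 kb around the gene it was 74.3% and 69.2%, H3K27ac coverage was 91.4% and 92.4%, and 1 gene had H3K27ac in the induced list alone. Without genes outside chromosomes 1 and 6, median Pol II coverage was 97.6% and 94.98%. Leaving out all genes that share 75 promoter bases with another, divergent partners included, kept 43, of which 33 and 33 had Pol II and 34 and 34 had H3K27ac, with medians of 88.8% and 80.9% for Pol II and 98.7% for H3K27ac induced. Leaving out the 12 near-copies alone, an alternative chosen after seeing the data, gave 95.8% and 87.7% for Pol II and 99.4% for H3K27ac induced. Lists of equal length changed no result. Ranking by fold put 15 and 24 genes at a Pol II place of 95 or above, in place of 30 and 35, and moved 59 of 104 places of the genes described in full by 5 or more, 30 down and 29 up. The gene alone moved 39 of 96, and 2 kb around it 2 of 104.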

Other observations

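Pseudogenes named by the same pattern had Pol II mostly where a histone gene lay beside them. Of 7 histone pseudogenes within 1 kb of a histone gene, 5 had Pol II and 5 had H3K27ac in each list. H2BC19P and H2BC20P on chromosome 1 stood at Pol II −log10 q of 423 and 407 uninduced and 374 and 382 induced, the summits of H2AC18 and H2AC19 beside them. H2AC5P and H2AC10P, which lie beside H2BC3 and H2BC10, had no region, as was so for those genes. Of the 10 pseudogenes farther away, H1-12P had 150 and 67.5 and H3C9P 40.9 and 16.3. H1-12P lay just past the 1 kb limit, under the Pol II region that also ran over H3C4, H2AC7 and H2BC7 in both lists. H2BC27P had a Pol II region in the induced list alone, with a −log10 q of 7.01.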
